A study of Mus musculus with 6 samples.

Results

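The cells were 4T1, a mouse mammary carcinoma line derived from a tumour of the triple-negative kind. The genes described here mostly encode subunits of respiratory complexes II, III, IV and V or cytochrome c. They were chosen by name: protein-coding genes with symbols beginning Sdh (a to d), Uqcr, Cox4 to Cox8, Atp5, mt-Co, mt-Cytb or mt-Atp, plus Cyc1 and Cycs, and with a mean of at least 1 FPKM (fragments per kilobase of transcript, scaled to the mapped fragments of the library). The names matched 54 protein-coding genes, 48 of which reached that level, among 28418 genes in the deposited tables. Of the 48, 42 are nuclear and 6 are mitochondrial. Atp5s, known as coupling factor B, and Cox7a2l, known for joining complexes III and IV, were counted by name with the subunits. By complex, there were 4 nuclear genes for complex II, 9 nuclear and 1 mitochondrial for complex III, 11 nuclear and 3 mitochondrial for complex IV, 17 nuclear and 2 mitochondrial for complex V, and the cytochrome c gene Cycs. The study compared 3 libraries of cells labelled 100 nM PFOS (perfluorooctane sulfonate, a persistent fluorinated surfactant) with 3 libraries of cells labelled 0 nM, all from the same line after 35 passages. Whether the replicates were grown as separate cultures is not stated, so every p-value reflects the spread among these 6 libraries alone, which may be technical.

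Electrons from succinate enter the chain at complex II, pass through ubiquinone to complex III, are carried by cytochrome c to complex IV and there reduce oxygen. Complexes III and IV pump protons across the inner mitochondrial membrane, and complex V, the ATP synthase, makes ATP as the protons flow back. Complex II is built from nuclear genes alone, whereas complexes III, IV and V each combine nuclear subunits with subunits translated inside the mitochondrion from mitochondrial DNA, so that their assembly draws on transcripts of both genomes.

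The sequences below show features of these genes that bear on their measurement and on what they share. The mitochondrial genes mt-Atp8 and mt-Atp6, which encode the subunits 8 and a of the ATP synthase, overlap by 43 bases (MT:7927-7969, plus strand), so a fragment from this stretch belongs to both; the capitals mark the start codon of mt-Atp6 and the stop codon of mt-Atp8.
mt-Atp8 and mt-Atp6 overlap: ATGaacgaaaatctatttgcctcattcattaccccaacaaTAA

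Nuclear subunit genes often carry sites for the nuclear respiratory factor NRF1 and the ETS factor GABPA near their start, and these promoters were searched for an NRF1 palindrome (GCGCA, any base, then GCGC) and CCGGAAG (an ETS core) on both strands. RefSeq promoters of 300 bases (GRCm38.p6; 250 before and 50 after the start) were given for 31 of the 42 nuclear genes, with 34 promoters in all. The NRF1 letters were in 29.4% of these 34 promoters, 10.8% of 10394 promoters of tested protein-coding genes and 4.60% of all 32851 promoters. The ETS letters were in 35.3%, 19.3% and 8.86% of the same sets. AAGATGGC, a YY1 core, was in 5.88%, 4.82% and 2.75%. At least 1 of the NRF1 and ETS motifs was in 18 of the 31 genes. The median GC content was 56.8% in the promoters of these genes and 61.3% in those of tested protein-coding genes. The promoters below are printed as the 180 bases before the start, those of Sdha with 3 NRF1 matches that do not overlap, of Cox6a1 and Sdhd with both motifs, and of Atp5e, whose level differed by the largest ratio among nuclear members with a mean over 10 FPKM; capitals mark motif matches.
Sdha promoter (GRCm38.p6, chr13:74350241-74350420, minus strand): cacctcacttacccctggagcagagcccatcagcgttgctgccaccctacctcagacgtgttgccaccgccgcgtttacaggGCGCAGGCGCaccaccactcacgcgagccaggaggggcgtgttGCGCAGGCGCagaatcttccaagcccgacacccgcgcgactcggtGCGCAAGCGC
Sdhd promoter (GRCm38.p6, chr9:50603850-50604029, minus strand): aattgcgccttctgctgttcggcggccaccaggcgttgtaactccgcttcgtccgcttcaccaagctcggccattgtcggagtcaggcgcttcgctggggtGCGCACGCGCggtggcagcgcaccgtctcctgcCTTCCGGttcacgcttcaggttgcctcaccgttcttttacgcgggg
Cox6a1 promoter (GRCm38.p6, chr5:115348959-115349138, minus strand): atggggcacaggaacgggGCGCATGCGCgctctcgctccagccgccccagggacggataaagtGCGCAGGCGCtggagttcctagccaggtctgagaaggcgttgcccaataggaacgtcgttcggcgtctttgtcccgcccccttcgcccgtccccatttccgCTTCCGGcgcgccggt
Atp5e promoter (GRCm38.p6, chr2:174464102-174464281, minus strand): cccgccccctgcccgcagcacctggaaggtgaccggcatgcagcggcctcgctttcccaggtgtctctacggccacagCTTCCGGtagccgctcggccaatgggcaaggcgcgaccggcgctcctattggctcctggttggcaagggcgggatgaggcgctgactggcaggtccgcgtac
A match describes the letters in this window and does not show that a factor binds there. Levels of the genes with these promoters are given with their complexes.

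Levels of subunit transcripts were close between 100 nM and 0 nM PFOS. For 45 of the 48 genes the mean at 100 nM was within 10% of the mean at 0 nM, as it was for 8983 of all 11741 genes tested. A gene was called changed when limma gave a Benjamini-Hochberg adjusted p under 0.05 over all genes tested, which was so for 4.15% of them (2.46% lower and 1.69% higher at 100 nM). Of the 48 members, 2 fell and 0 rose, a share near that background. They were Atp5a1, the alpha subunit of the ATP synthase, and mt-Co1, the catalytic subunit I of complex IV. At an unadjusted p under 0.05 there were 10 members, 3 with a higher and 7 with a lower mean, against 20.7% of all genes tested. For 12 of the 48 members the 100 nM and 0 nM values lay apart (6 higher and 6 lower at 100 nM), against 26.9% of all genes tested. On the log2(FPKM + 1) scale the median difference, 100 nM minus 0 nM, was -0.01 over the 42 nuclear members, -0.08 over the 6 mitochondrial members (0.0011 after quantile normalization, which ties the levels of the top-ranked genes across libraries) and 0.01 over all genes tested. The 95% limma intervals of the difference lay within 0.25 of 0 on this scale for 40 of the 42 nuclear and all 6 mitochondrial members. The 2 exceptions were Atp5s (upper bound 0.35) and Atp5g1 (upper bound 0.31). This count was not taken over all genes tested, whose median level was lower (7.62 FPKM, against 61.9 FPKM for the members).

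**Figure D1:**
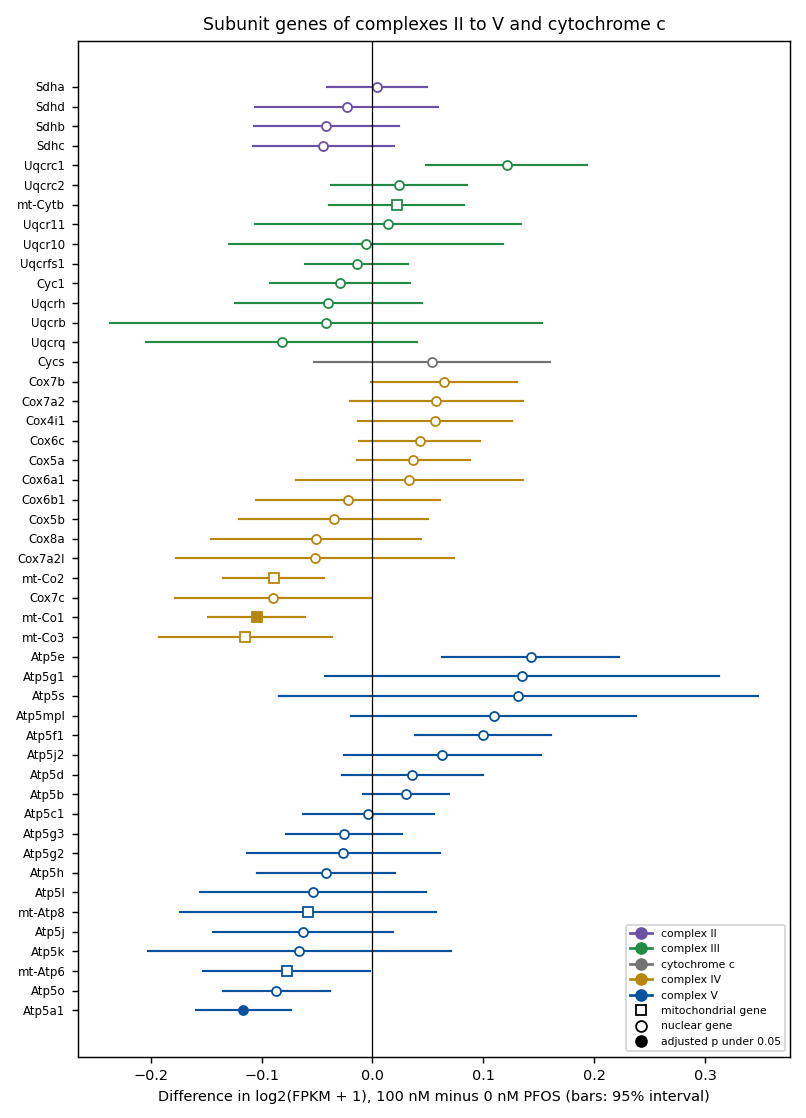
Difference in log2(FPKM + 1), 100 nM minus 0 nM PFOS, of the 48 subunit genes (horizontal axis) with 95% limma intervals, by complex (colour) and genome (squares, mitochondrial). Filled symbols mark the 2 genes with an adjusted p under 0.05, mt-Co1 and Atp5a1, both left of 0, while the other 46 lie on both sides of 0.

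Library totals were alike, at 306735 to 309381 summed FPKM at 100 nM and 306716 to 308830 at 0 nM, and the files hold no read depth. Replicate 3 at 100 nM stood apart from the other 5 libraries on the first principal component. It alone had clear levels of T cell markers such as Gzmb (14.94 FPKM there and at most 0.05 elsewhere). Also highest there were Cd14 (65.16 FPKM, 8.41 to 24.14 elsewhere), Cd68 (31.13, 15.52 to 19.82 elsewhere) and the stromal marker Dcn (2.26, at most 0.05 elsewhere). Other markers were not, such as Lyz2, highest in replicate 2 at 100 nM (240.43 FPKM), and Acta2, lowest in replicate 3 at 100 nM (0.12 FPKM). The 16 leukocyte markers summed to 145 to 319 FPKM at 100 nM and 148 to 187 at 0 nM, mostly from Lyz2; the B cell marker Ms4a1 was listed at 0 in all 6 libraries. The 6 markers of the labelled epithelial type (Epcam, Cdh1, Krt7, Krt8, Krt18 and Krt19) summed to 751 to 802 FPKM at 100 nM and 714 to 715 at 0 nM. All 6 had a higher mean at 100 nM, 5 of the 6 without overlap, with a median difference of 0.27, above that of every subunit gene. Cdh1, Krt7 and Krt19 rose (limma adjusted p = 0.00323, 0.00731 and 0.0187). The 6 stromal markers summed to 5.46 to 8.19 FPKM at 100 nM and 5.28 to 5.68 at 0 nM. In bulk samples, fewer cells of a type and less RNA per cell cannot be told apart, and the part of these markers in the results was not tested. Without replicate 3 at 100 nM, mt-Co1 kept its call (limma adjusted p = 0.0298) and Atp5a1 lost it (limma adjusted p = 0.0521). Leaving out any 1 of the other 5 libraries ended both calls, with limma adjusted p-values of 0.061 to 0.0942 for Atp5a1 and 0.0939 to 0.119 for mt-Co1.

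Complex II, succinate dehydrogenase, also works in the citric acid cycle. None of its 4 genes was called by limma, and 0 had an unadjusted p under 0.05. Sdha, the flavoprotein that oxidises succinate, averaged 51.3 ± 0.515 FPKM at 100 nM and 51.1 ± 0.1498 FPKM at 0 nM. These values overlap. Its difference was 0.00 with a 95% interval of -0.04 to 0.05 on the log2 scale. Sdhb, the iron-sulfur subunit, averaged 44.1 ± 0.934 FPKM at 100 nM and 45.4 ± 1.13 FPKM at 0 nM (SD, n = 3 each). The membrane anchors were Sdhc, at 27.1 ± 0.344 FPKM at 100 nM and 27.96 ± 0.705 FPKM at 0 nM, and Sdhd, the highest of the 4, at 108 ± 3.37 FPKM at 100 nM and 109 ± 3.84 FPKM at 0 nM. Their summed level was 230 ± 3.77 FPKM at 100 nM and 234 ± 2.26 FPKM at 0 nM, with overlapping libraries.

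In complex III, the cytochrome bc1 complex, 0 of 10 genes were called and 1, Uqcrc1, had an unadjusted p under 0.05. Uqcrc1, a core subunit, had 94.8, 95.2 and 91.1 FPKM at 100 nM, against 85.9, 88.9 and 83.4 FPKM at 0 nM. All 3 libraries at 100 nM lay above all 3 at 0 nM. The difference was 0.12 ± 0.03 (SE) with an adjusted p of 0.0823. Its partner Uqcrc2 had 62.9 ± 1.04 FPKM at 100 nM and 61.9 ± 1.52 FPKM at 0 nM. The electron carriers of the complex did not separate the groups either. Cyc1, which encodes cytochrome c1, averaged 57.4 ± 1.79 FPKM at 100 nM and 58.6 ± 0.197 FPKM at 0 nM. Uqcrfs1, the Rieske iron-sulfur protein, had 81.1, 79.7 and 79.2 FPKM at 100 nM, against 80.3, 81.7 and 80.4 FPKM at 0 nM. The mitochondrial gene mt-Cytb, the cytochrome b that holds both quinone sites, had 2569, 2557 and 2640 FPKM at 100 nM, against 2588, 2595 and 2468 FPKM at 0 nM. These overlap, and the difference was 0.02 with a 95% interval of -0.04 to 0.08. Of the small subunits, Uqcrq had the lowest level of the complex and a difference of -0.08 (adjusted p = 0.422), and Uqcr10, Uqcr11, Uqcrb and Uqcrh had differences of -0.04 to 0.01. Uqcrb, a ubiquinone-binding subunit, was lowest in replicate 2 at 100 nM, with 41.2 FPKM, against 48.3 to 51.9 FPKM in the other 5 libraries. Its processed copy Gm2962 on chromosome 1 was highest in that same library, at 39.3 FPKM, against 12.1 to 27.2 FPKM in the others.

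Cycs, the mobile electron carrier cytochrome c, had 31.2, 30.4 and 34.1 FPKM at 100 nM, against 31.2, 30.2 and 30.5 FPKM at 0 nM. Only replicate 3 at 100 nM stood above the range at 0 nM, and the difference of 0.05 ± 0.04 (SE) was not called (adjusted p = 0.552).

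In complex IV, cytochrome c oxidase, levels were lower at 100 nM for the mitochondrial genes and close between groups for the nuclear members. Its 3 mitochondrial genes encode the catalytic core, and all 3 had lower levels in every 100 nM library than in any 0 nM library. Of these, mt-Co1 passed the test. It had 6544, 6576 and 6732 FPKM at 100 nM, against 7029, 7119 and 7193 FPKM at 0 nM, the highest level of the 11741 genes tested. It fell by 6.98%, a difference of -0.10 ± 0.02 (SE) with a limma adjusted p of 0.0346. mt-Co2, which carries the copper centre that takes electrons from cytochrome c, had 2652, 2620 and 2641 FPKM at 100 nM, against 2809, 2859 and 2750 FPKM at 0 nM. Its difference of -0.09 ± 0.02 (SE) had an adjusted p of 0.0539. mt-Co3 had 1817, 1776 and 1831 FPKM at 100 nM, against 1920, 2056 and 1900 FPKM at 0 nM. Its difference of -0.11 ± 0.03 (SE) had an adjusted p of 0.112, so mt-Co2 and mt-Co3 were not called although their groups did not overlap. The sum of the 3 was 11063 ± 124 FPKM at 100 nM and 11878 ± 140 FPKM at 0 nM (SD, n = 3 each), a difference of -6.87%. After quantile normalization the sum differed by -0.2997% and mt-Co1 by 0 on the log2 scale (limma adjusted p = 1).

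**Figure D2:**
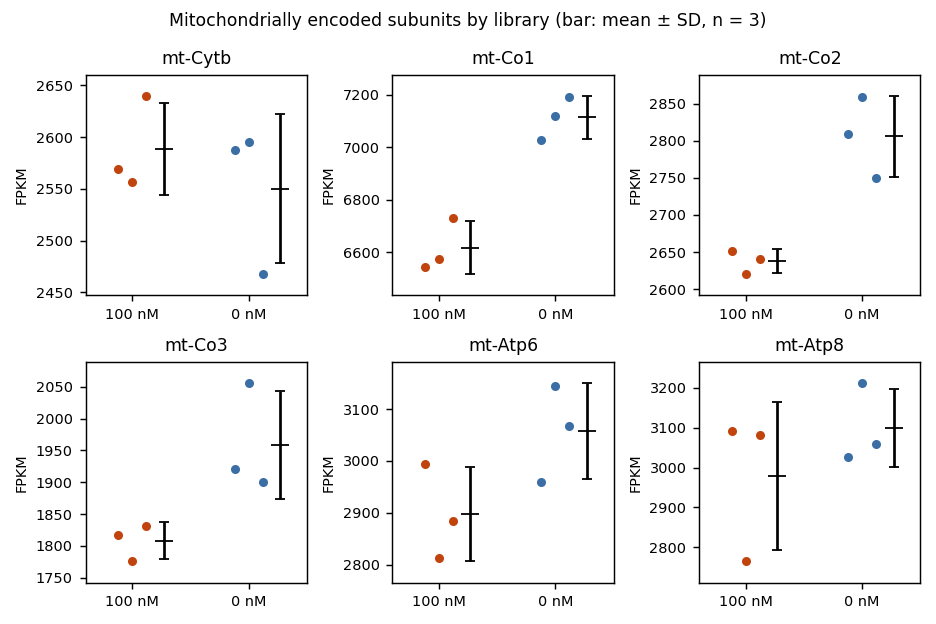
FPKM of the 6 mitochondrially encoded subunits in each library (points) with mean ± SD (n = 3) at 100 nM and 0 nM PFOS; each panel has its own vertical range, which does not start at 0. The groups are apart for mt-Co1 (6544 to 6732 at 100 nM, 7029 to 7193 at 0 nM), mt-Co2 and mt-Co3 and overlap for mt-Cytb, mt-Atp6 and mt-Atp8.

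The 11 nuclear members of complex IV, chosen by name, mostly encode subunits around that core. Of them 0 were called, with 1, Cox7c, at an unadjusted p under 0.05. Their sum was 879 ± 26.4 FPKM at 100 nM and 877 ± 5.95 FPKM at 0 nM. The ratio of the mitochondrial to the nuclear sum was 12.9, 12.5 and 12.3 at 100 nM, against 13.5, 13.6 and 13.5 at 0 nM, with no overlap. The ratio, like the sums, is a description over members and was not tested. It leaves out copies of mitochondrial genes listed on chromosome 1, described below. The name rule also left out Ndufa4, now placed in complex IV. Ndufa4 averaged 66.15 ± 0.235 FPKM at 100 nM and 70.4 ± 2.58 FPKM at 0 nM, lower without overlap (limma adjusted p = 0.153). Cox7c, a small membrane subunit, averaged 35.4 ± 1.41 FPKM at 100 nM and 37.7 ± 1.16 FPKM at 0 nM (adjusted p = 0.236). Cox5a and Cox6c had higher values in each 100 nM library than in any 0 nM library, by 0.04 each (adjusted p = 0.389 and 0.345). Cox7b, on the X chromosome, averaged 52.4 ± 1.66 FPKM at 100 nM and 50.1 ± 0.424 FPKM at 0 nM (adjusted p = 0.249). Cox5b, which binds zinc, averaged 29.0 ± 1.37 FPKM at 100 nM and 29.8 ± 0.276 FPKM at 0 nM. Cox7a2l, known for its part in joining complexes III and IV, averaged 76.4 ± 5.25 FPKM at 100 nM and 79.1 ± 2.99 FPKM at 0 nM.

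Several complex IV subunits exist as pairs of isoforms, with forms of heart and skeletal muscle or of testis beside the widespread ones. In these cells the widespread form held nearly all of the level in each pair. Cox8a was the highest nuclear member of the complex, at 170 ± 4.17 FPKM at 100 nM and 176 ± 8.84 FPKM at 0 nM, while the muscle form Cox8b was at 0 to 0.29 FPKM in the 6 libraries. Cox6a1 had 151, 151 and 168 FPKM at 100 nM and 152, 154 and 152 FPKM at 0 nM, high only in replicate 3 at 100 nM; its muscle form Cox6a2 was at 0 to 1.57 FPKM. Cox4i1, an entry subunit of assembly, averaged 136 ± 2.81 FPKM at 100 nM and 131 ± 4.21 FPKM at 0 nM, and Cox4i2, the form of lung and low oxygen, was at 0 to 0.12 FPKM. Cox7a2 averaged 62.7 ± 1.29 FPKM at 100 nM and 60.3 ± 2.28 FPKM at 0 nM, and the muscle form Cox7a1 was at 0 to 1.04 FPKM. Cox6b1, which faces cytochrome c, averaged 95.0 ± 2.95 FPKM at 100 nM and 96.5 ± 3.49 FPKM at 0 nM, and the testis form Cox6b2 was at 0 to 0.20 FPKM. The testis form Cox7b2 was listed at 0 in all 6 libraries. These 6 genes were the protein-coding matches under 1 FPKM, the nearest to that limit being Cox6a2 (mean 0.375), Cox7a1 (mean 0.332) and Cox8b (mean 0.0483), and Atp5s, Atp5l and Atp5g1 were the members nearest above it (means 2.41, 8.69 and 9.82).

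In complex V, 1 of 17 nuclear and 0 of 2 mitochondrial genes were called, and 4 and 1 had an unadjusted p under 0.05. The catalytic F1 head is built of alternating alpha and beta subunits around a central stalk. Atp5a1, the alpha subunit (chromosome 18, 77773729 to 77782869), had 250, 245 and 247 FPKM at 100 nM, against 270, 270 and 264 FPKM at 0 nM. The groups did not overlap, and the level fell by 7.78%, a difference of -0.12 ± 0.02 (SE) with a limma adjusted p of 0.0239. Atp5a1 overlaps Haus1 on the other strand, and whether strand was used in the quantification is not given in the sources used here. Its partner Atp5b, the beta subunit and the highest nuclear member, had 360, 364 and 360 FPKM at 100 nM, against 351, 357 and 353 FPKM at 0 nM. Here the 100 nM libraries were the higher ones, without overlap, by 0.03 ± 0.02 (SE; adjusted p = 0.350). The difference in direction between the 2 was not tested. The central stalk genes Atp5c1 and Atp5d had differences of 0.00 and 0.04. Atp5e, the epsilon subunit of the stalk, had 17.0, 17.8 and 18.1 FPKM at 100 nM, against 16.1, 16.1 and 15.4 FPKM at 0 nM. All of its 100 nM values were above those at 0 nM, with a difference of 0.14 ± 0.03 (SE) and an adjusted p of 0.0676.

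The peripheral stalk, which holds the head still while the rotor turns, had members on both sides of 0. Atp5o, the subunit that links the stalk to the head, had 66.0, 66.4 and 68.1 FPKM at 100 nM, against 70.7, 71.0 and 71.4 FPKM at 0 nM. It was lower without overlap (difference -0.09 ± 0.02, SE; adjusted p = 0.0675). Atp5f1, subunit b, had 70.2, 71.5 and 69.5 FPKM at 100 nM, against 67.09, 66.05 and 63.72 FPKM at 0 nM. It was higher without overlap (difference 0.10 ± 0.03, SE; adjusted p = 0.0873). Atp5j, coupling factor 6, averaged 21.8 ± 0.474 FPKM at 100 nM and 22.8 ± 0.863 FPKM at 0 nM, lower without overlap (adjusted p = 0.353). Atp5h, subunit d, averaged 54.3 ± 1.08 FPKM at 100 nM and 55.9 ± 1.28 FPKM at 0 nM, with overlap.

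The proton-carrying ring consists of subunit c, which the nuclear genes Atp5g1, Atp5g2 and Atp5g3 all encode. Atp5g2 averaged 78.4 ± 2.64 FPKM at 100 nM and 79.9 ± 2.98 FPKM at 0 nM, and Atp5g3 averaged 80.5 ± 0.807 FPKM at 100 nM and 81.9 ± 1.60 FPKM at 0 nM. Atp5g1 was listed far lower, at 9.09, 11.08 and 10.84 FPKM at 100 nM and 9.38, 8.82 and 9.69 FPKM at 0 nM, with overlap (adjusted p = 0.363). Beside the ring, mt-Atp6 (subunit a) had 2994, 2814 and 2885 FPKM at 100 nM, against 2960, 3144 and 3068 FPKM at 0 nM. Its difference was -0.08 ± 0.03 (SE; adjusted p = 0.228). mt-Atp8 had 3093, 2765 and 3081 FPKM at 100 nM, against 3026, 3211 and 3060 FPKM at 0 nM, lowest in replicate 2 at 100 nM, where mt-Atp6 was lowest too. The membrane subunits Atp5j2, Atp5k, Atp5l and Atp5mpl had differences of -0.07 to 0.11, with adjusted p-values of 0.313 to 0.566. Atp5s, known as coupling factor B, was the lowest member, at 2.57 ± 0.412 FPKM at 100 nM and 2.25 ± 0.146 FPKM at 0 nM. The 17 nuclear genes summed to 1318 ± 2.60 FPKM at 100 nM and 1329 ± 12.3 FPKM at 0 nM, with overlap.

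Genes around the 9 nuclear members whose groups did not overlap were also read, counting tested protein-coding genes within 2.5 Mb on either side. Of all genes tested, 6175 of 11741 had a higher mean at 100 nM. Among the members with higher values, a higher mean was seen for 71 of 81 neighbours of Uqcrc1, 25 of 42 of Cox5a, 12 of 19 of Cox6c, 42 of 67 of Atp5b, 12 of 19 of Atp5e and 21 of 40 of Atp5f1. Among those with lower values, a lower mean was seen for 14 of 15 neighbours of Atp5a1, 17 of 31 of Atp5o and 4 of 4 of Atp5j. The median difference of the neighbours was 0.07 for Uqcrc1, -0.14 for Atp5a1 and -0.09 for Atp5j, and lay between -0.01 and 0.06 for the other 6. One-sided neighbourhoods were not particular to these 9 members. Among members whose groups overlapped, a higher mean was seen for 9 of 9 neighbours of Cox7b, 37 of 43 of Atp5mpl and 12 of 14 of Cox7a2. For Cox6b1, also with overlap, it was 33 of 66. The part of the neighbourhood in the members' differences was not tested.

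**Figure D3:**
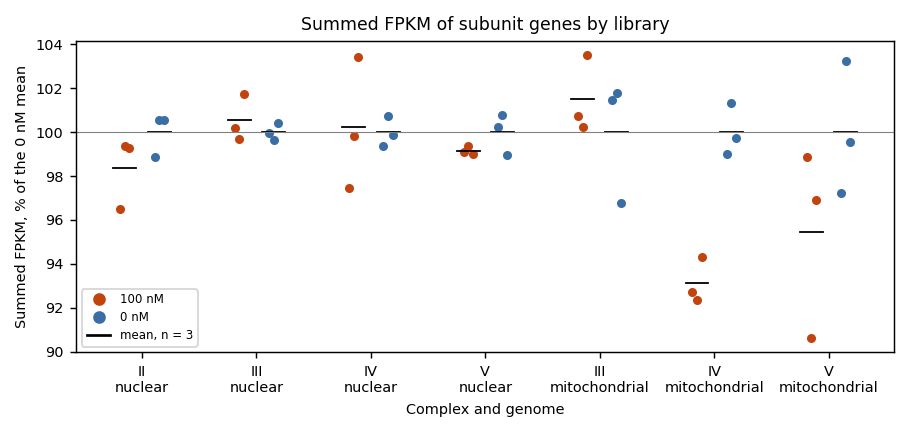
Summed FPKM of the subunit genes of each complex and genome in each library, as a percentage of the 0 nM mean of that sum (vertical axis, which does not start at 0); lines are means (n = 3). The mitochondrial complex IV genes have no overlap (11063 FPKM on average at 100 nM and 11878 at 0 nM), and the other 6 sums overlap.

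Set along the mitochondrial genome, the differences fell into stretches, a pattern noticed after the values were seen and given without a test. Mitochondrial messages are cut from long precursor transcripts, and the part of this in the pattern was not tested. The 8 genes from mt-Nd1 to mt-Nd3 all had a lower mean at 100 nM, with differences of -0.16 to -0.05. They include mt-Co1, mt-Co2, mt-Co3, mt-Atp8 and mt-Atp6. As mt-Atp8 and mt-Atp6 overlap, they are not fully separate readings. The 4 genes from mt-Nd4l to mt-Cytb on the same strand had differences of -0.01 to 0.02. mt-Nd6, on the other strand, had a difference of 0.01. The complex I gene mt-Nd1 fell, at 2843 ± 67.9 FPKM at 100 nM and 3166 ± 84.1 FPKM at 0 nM (limma adjusted p = 0.0342). All 13 together summed to 28643 ± 502 FPKM at 100 nM and 30090 ± 615 FPKM at 0 nM, without overlap. The share of summed FPKM on the mitochondrial chromosome was 10.2%, 9.84% and 10.1% at 100 nM and 10.4%, 10.8% and 10.5% at 0 nM. Copies of mitochondrial genes listed on chromosome 1, given below, are in neither the sum nor the share.

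**Figure D4:**
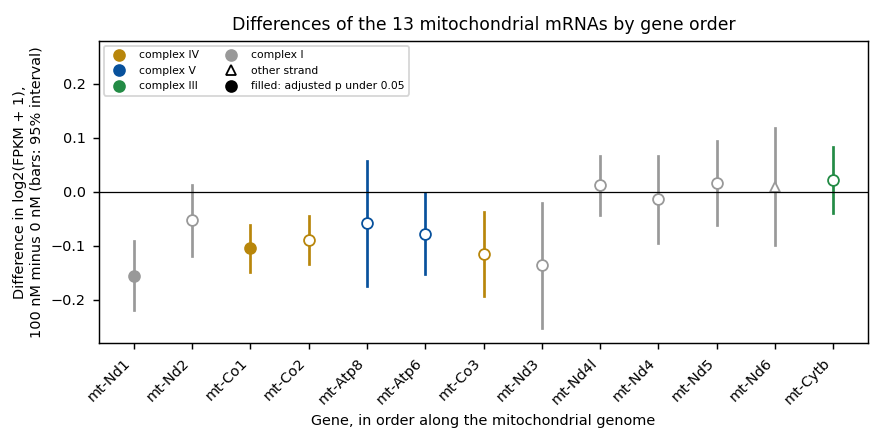
Difference in log2(FPKM + 1), 100 nM minus 0 nM PFOS, of the 13 mitochondrial protein-coding genes in their order along the mitochondrial genome. Bars are 95% limma intervals, filled symbols have an adjusted p under 0.05 and the triangle marks the gene on the other strand. The 8 genes from mt-Nd1 to mt-Nd3 lie below 0, and the 5 that follow lie between -0.01 and 0.02.

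For several members the deposited level could not be told apart from that of near-identical copies elsewhere in the genome. A copy was taken as another annotated gene of which at least 30% of the 31-base words lie in the member, a rule set after the data were seen. By it, 19 members (15 nuclear, 4 mitochondrial) had 35 copies in the tables, 22 of them with a mean of at least 1 FPKM. On chromosome 1, Gm28661 (24614885 to 24615565, minus strand) is identical to mt-Co2 over 681 of 681 aligned bases, Gm28437 to mt-Co3 over 783 and Gm10925 to mt-Atp6 over 678. Gm28661 had 2626, 2608 and 2602 FPKM at 100 nM, against 2813, 2852 and 2724 FPKM at 0 nM. In no library was it further than 1.44% from mt-Co2. For Gm28437 and mt-Co3 that gap was at most 0.656%, and for Gm10925 and mt-Atp6 at most 7.23%. Gm29216, which matches mt-Co1 from base 1054 with 6 of 492 bases different, had 1397, 1457 and 1503 FPKM at 100 nM, against 1587, 1610 and 1638 FPKM at 0 nM. It was the only copy called, also lower (difference -0.15; limma adjusted p = 0.0436). mt-Cytb and mt-Atp8 had no such copy. Among the 8 genes from mt-Nd1 to mt-Nd3, other transcripts held 63.9% to 100% of the words of mt-Co1, mt-Co2, mt-Co3, mt-Atp6 and mt-Nd3, 13.5% of those of mt-Nd2, 7.5% of those of mt-Atp8 and 0.0% of those of mt-Nd1. Among the 5 that follow, the share was 98.9% for mt-Nd4l, 62.8% for mt-Nd4 and 6.6% to 16.8% for mt-Nd5, mt-Nd6 and mt-Cytb. The part of shared sequence in the differences was not tested.

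Among nuclear members, Gm10039, a processed copy on chromosome 11, had 81.9, 69.8 and 70.9 FPKM at 100 nM, against 78.9, 76.7 and 77.3 FPKM at 0 nM, 7.73 times the mean level of Atp5g1. Gm10221 on chromosome 5 stood at 2.76 times Atp5l. Gm10175 and Gm10231, every word of which lies in Atp5g2, had 0.443 and 0.502 times its level, and Gm10053 had 0.541 times that of Cycs. With the copies added to their members and the fit repeated, the difference of Atp5g1 was -0.04 in place of 0.14, and that of mt-Co1 was -0.11 (limma adjusted p = 0.0352). The same 2 members were called. FPKM is scaled by length and was added as listed, so a fragment of a short copy can count for more in these sums and ratios. Gm10039 has 411 bases, and the longest transcript of Atp5g1 has 4715. The levels of the members with copies, and their order within a complex, are therefore uncertain.

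**Figure D5:**
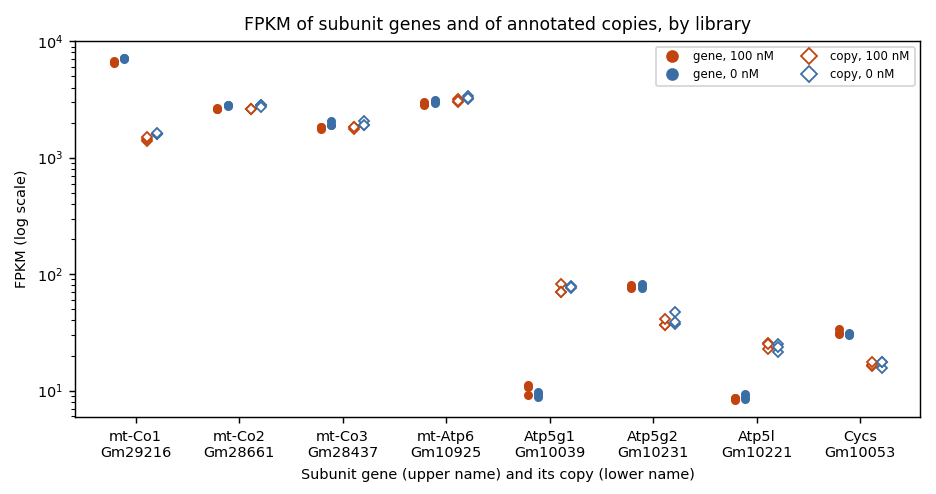
FPKM (log scale) of 8 subunit genes (filled) and of 1 annotated copy of each (open) in the 3 libraries at 100 nM and the 3 at 0 nM. The copies of mt-Co2, mt-Co3 and mt-Atp6 lie at the level of their genes, and Gm10039 and Gm10221 lie above Atp5g1 and Atp5l.

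Other genes of the pathway were read from lists written by role. Over all genes tested, the same fit called 4.15%. Nuclear Nduf genes (assembly factors and Ndufa4 included) were counted by name alone with complex I, where electrons from NADH enter. Of these 45 genes, 1 rose (Ndufb10) and 1 fell (Ndufb4), and 1 of 7 mitochondrial complex I genes fell (mt-Nd1). Of 24 assembly factors of complex IV, 2 rose and 0 fell. They were Cmc1, which stabilises newly made subunit I, at 12.8 ± 0.714 FPKM at 100 nM and 10.4 ± 0.179 FPKM at 0 nM (adjusted p = 0.0213), and Higd1a, a small inner membrane protein tied to the oxidase, at 11.4 ± 0.270 FPKM at 100 nM and 9.63 ± 0.428 FPKM at 0 nM (adjusted p = 0.0346); both lie on chromosome 9. Among 13 genes that shape the inner membrane, the prohibitin gene Phb2 rose, at 80.01 ± 0.321 FPKM at 100 nM and 73.0 ± 0.842 FPKM at 0 nM (adjusted p = 0.0185). The fusion gene Opa1, on chromosome 16, fell, at 11.2 ± 0.236 FPKM at 100 nM and 14.3 ± 0.354 FPKM at 0 nM (adjusted p = 0.00496).

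Limma called 0 of 9 assembly factors of complexes II and III (4 at an unadjusted p under 0.05), 0 of 5 of complex V (0 unadjusted) and 0 of 5 genes of other electron entry points (0 unadjusted). It called 0 of 6 carriers and pores (1 unadjusted), 0 of 23 regulators of mitochondrial biogenesis (5 unadjusted) and 0 of 17 genes of mitochondrial RNA processing (2 unadjusted). Over all genes tested, 20.7% had an unadjusted p under 0.05. Gabpa, a subunit of the ETS factor named above, had the smallest p of the regulators, at 12.4 ± 0.335 FPKM at 100 nM and 13.8 ± 0.417 FPKM at 0 nM (difference -0.15; adjusted p = 0.0654). It lies on chromosome 16 and overlaps Atp5j, which is read from the other strand.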

How the data were processed

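Poly(A) RNA of 4T1 cells was sequenced in pairs from strand-marked (dUTP) libraries, per the labels' protocols. The deposited values are FPKM per gene, normalized by the authors, per the file headers. Fastp, HISAT2 and StringTie and the builds GRCh38 and mm10 are named in the submitters' processing notes; their roles and versions, the transcript lengths and any use of strand were not given in the sources used here. Symbols came from GENCODE M21 (GRCm38), which held 28350 of 28418 identifiers; 45 of the 48 members had the same coordinates there. Coordinates are as deposited.

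All 11741 genes averaging 1 FPKM or more were fitted on log2(FPKM + 1) by limma-trend (limma 3.58.1, R 4.3.3). Tests were two-sided and took 100 nM minus 0 nM, with Benjamini-Hochberg adjustment and calls under 0.05. Fold changes on this scale understate the change of low genes. The fit was tested on simulated data, where it called 40% of 50 genes changed 1.2-fold and 80% of 50 changed 1.5-fold. Small changes can therefore go uncalled. No counts were used, so depth is unknown. Members and lists were chosen with earlier results of these data known. Named members are those called, those with the smallest p-values in each complex and genome, those whose groups do not overlap, mitochondrial members, isoform families and extremes of level; others were chosen after their values were seen. Word sharing used GENCODE transcripts. Alternatives covered pseudocount, filter, scaling, moderation, a replicate block and left-out libraries. Python 3.11.15 and pandas 2.3.3 were used for the rest.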

Additional observations from a re-analysis of the deposited data

How the results depend on the processing

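Both calls rested on small margins. All 6 libraries mattered: leaving out 1 library at a time gave 122 to 289 calls over all genes, against 487, and 0 to 1 among the members, against 2. mt-Co1 alone was called without replicate 3 at 100 nM, and 0 members were called without any of the other 5. In those 5 fits, 8 to 13 members and 1993 to 2223 of all 11741 genes had an unadjusted p under 0.05. Without replicate 3 of both groups there were 74 calls and 0 members, with no filter 204 and 0, without the trend in limma 294 and 0 (7 to 11 members unadjusted in these fits). In the same order, 2007 of 11741, 3055 of 26956 and 2352 of 11741 genes had an unadjusted p under 0.05. With a mean of at least 5 FPKM, 4 of 47 members were called, adding Atp5e and mt-Co2, against 593 of all 7431 genes. With robust moderation in limma 3 members were called, adding mt-Co2, against 548 of all 11741 genes. Quantile normalization left 1 member, Atp5a1, and moved the mitochondrial median difference to 0.001129, against -0.08; it gives a gene that keeps its rank in every library the same value, as for mt-Co1. No pairing by the replicate numbers in the labels was seen (correlations of same-numbered libraries -0.05 to 0.01). With 3 libraries per group, these correlations cannot exclude a pairing. With the replicate block 58 genes and 0 members were called (12 members and 2243 of 11741 genes unadjusted). For the remaining lost calls the cause was not tested. Each of the 2 calls was kept in 8 of the 18 alternatives and lost in 10. Over the 18 alternatives the difference of Atp5a1 ran from -0.13 to -0.11 and its adjusted p from 0.0172 to 0.1005; for mt-Co1 these were -0.12 to 0 and 0.0172 to 1. Quantile normalization, added for the sums after seeing the data, moved 3 of the 8 sums by more than the replicate spread: the mitochondrial sum of complex IV differed by -0.2997% (against -6.868%), that of complex V by 1.984% (against -4.542%) and the nuclear sum of complex V by -1.64% (against -0.8441%). Under the other scalings and left-out libraries run for them, sums moved by less than that spread. The mitochondrial sum of complex IV could not be taken without genes sharing at least 50% of words, since all 3 do. Depth is unknown and limits what can be said of low values.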
